A study of Mus musculus with 7 samples.

Results

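Immediate early genes are transcribed within minutes of a stimulus, without new protein synthesis, and most of their transcripts are short-lived. Fos, Fosb, Jun, Junb and Jund encode subunits of AP-1, a leucine zipper dimer that binds DNA, while Egr1 is a zinc finger factor and Atf3 a stress-induced leucine zipper factor of the ATF family. In heart muscle this group is known for its fast response to stretch, pressure load, neurohormones and injury. Serum response factor with its ternary complex partners, and CREB at cyclic AMP response elements, are the textbook inputs to many of these promoters. The set described here is these 7 genes with Ier2, Ier3 and Btg2, 10 genes in all, taken by name from the 12393 genes that the platform table names. They were read by 12 probe sets of 22626, since Jun and Btg2 have 2 probe sets each.

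Left ventricles of 7 male mice, 21 months old, were measured on 1-colour MOE430A arrays, each mouse having an array of its own. Knockout mice M4, M10 and M140 are eNOS (-/-), without the endothelial nitric oxide synthase that Nos3 encodes, and M23, M125, M128 and M158 are wild type (+/+). The labels speak of cardiac dysfunction and high mortality of such knockout males by this age, and the comparison with wild type was made to look for genes tied to heart failure. The labels give neither the strain nor the way the gene was disrupted, and an exercise keyword is tied to no mouse. Intensities are on a linear scale in arbitrary units.

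Arrays had medians of 671 to 699. M140 and M128 were hybridized on day 1, M125 on day 2, M4 and M10 on day 3, and M23 and M158 on day 4, so day 1 alone held both groups. All 7 markers of ventricular muscle were tested, and 6 of them reached the top of the scale on every array. Atrial markers differed between arrays in more than 1 way. Nppa, the atrial natriuretic peptide gene, which ventricles also express under load, read 37741 to 45540 on knockout arrays and 6717 to 32820 on wild-type arrays. On M4 and M140 Nppa was at the top of the scale. Myl7, an atrial myosin light chain, read 17556 on M10, 16097 on M125, 2926 on M128 and 356 to 1207 on the other 4 arrays, and Myl4 and Sln were also highest on M125, M10 and M128. Any part of this in the member values was not tested. The ratio of 5' to 3' Gapdh control signal, a measure of RNA integrity, was 0.521 to 0.759 on knockout arrays and 0.098 to 0.777 on wild-type arrays, lowest on M23. The single Nos3 probe set read 1135 to 1414 on knockout and 791 to 1163 on wild-type arrays, and where it lies relative to the disruption is unstated, so it checks no label. Directions below are therefore those of the arrays labelled knockout against those labelled wild type.

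The promoters of Fos and Btg2 are shown because the 3 largest differences among the members were those of Egr1, Fos and Btg2, of which Fos and Btg2 had a promoter in the table used. RefSeq promoters of build GRCm38.p6, from 250 bases before to 50 after the gene start, were found for 8 of the 10 genes, all but Egr1 and Ier2. Promoters of a single chromosome were left out before this search and before the counts below. A gene without a window here was therefore not shown to lack a promoter in RefSeq. The Fos window is chr12:85473640-85473939 on the plus strand and the Btg2 window is chr1:134079106-134079405 on the minus strand. Capitals mark the TATA motif TATAAA, the cyclic AMP response element TGACGTCA and its core TGACG, which the full element contains.

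Fos: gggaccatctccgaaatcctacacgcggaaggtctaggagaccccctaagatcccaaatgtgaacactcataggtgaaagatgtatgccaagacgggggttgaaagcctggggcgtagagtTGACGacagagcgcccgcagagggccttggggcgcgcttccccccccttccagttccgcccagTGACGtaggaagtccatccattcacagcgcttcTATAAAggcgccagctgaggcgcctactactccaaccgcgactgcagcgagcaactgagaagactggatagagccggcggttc

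Btg2: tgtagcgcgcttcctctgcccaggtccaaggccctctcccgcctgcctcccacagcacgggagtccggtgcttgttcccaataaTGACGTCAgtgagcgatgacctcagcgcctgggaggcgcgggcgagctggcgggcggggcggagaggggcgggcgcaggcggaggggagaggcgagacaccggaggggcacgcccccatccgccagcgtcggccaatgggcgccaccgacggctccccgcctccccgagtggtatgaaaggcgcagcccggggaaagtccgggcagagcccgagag

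In the Fos promoter TGACG began 129 and 66 bases before the start and TATAAA began 33 bases before it. In the Btg2 promoter the full palindrome TGACGTCA began 166 bases before the start. On both strands of 32851 promoters of the same length, the full element occurred in 1.79%, the core in 20.8% and TATAAA in 13.6%. The core was present in 5 of the 8 member promoters (Fos, Fosb, Junb, Atf3 and Btg2), the full element in 1 (Btg2) and TATAAA in 2 (Fos and Junb). In Junb TATAAA began at position 1 counted from the start, not before it as in Fos. Neither an AP-1 site (TGANTCA, in 7.81% of all promoters) nor a CArG box (1.63%), the sequence bound by serum response factor, was found in these 8 windows. The windows reach only 250 bases before the start, and Egr1 and Ier2 are not among them. Sites farther upstream were therefore not searched, and their absence from these promoters as a whole was not tested.

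Egr1 and Fos read highest on a single knockout array, Atf3 on a single wild-type array, and for 1 of the 2 Btg2 probe sets each of the 3 knockout arrays exceeded each of the 4 wild-type arrays. Jun, Junb, Jund and Ier2 differed between the groups by no more than 0.15 on the log2 scale in size, with overlapping groups. By limma, 0 members had an adjusted p under 0.05. Of the 12 member probe sets 11 were tested, covering 9 genes, and Fosb was too dim. At an unadjusted p under 0.05, 2 of the 11 (Egr1 and Btg2 1448272_at) differed, both higher, which is 18.2% of them. Over all 13836 tested probe sets 11.8% had such a p, 6.57% higher and 5.25% lower, and 0 (0%) passed the adjusted p. With array weights 619 of all tested probe sets passed, and 74 passed without knockout M10. The groups did not overlap for 1 of the 11, or 9.09%, against 9.3% of all tested probe sets, 4.97% higher and 4.34% lower. The median log2 difference over the 9 tested genes was 0.44, against -0.0027 over all 8869 tested genes. It was 0.19 with the mean of a gene's probe sets and 0.25 without M4. Mouse and hybridization day both enter the spread on which these p-values rest. Day also enters the group differences themselves, since day 1 alone held both groups, and the p-values do not allow for that. With day as a fixed block the log2 difference was 0.19 for Egr1, 0.11 for Btg2 1448272_at and -0.32 for Fos.

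**Figure D1:**
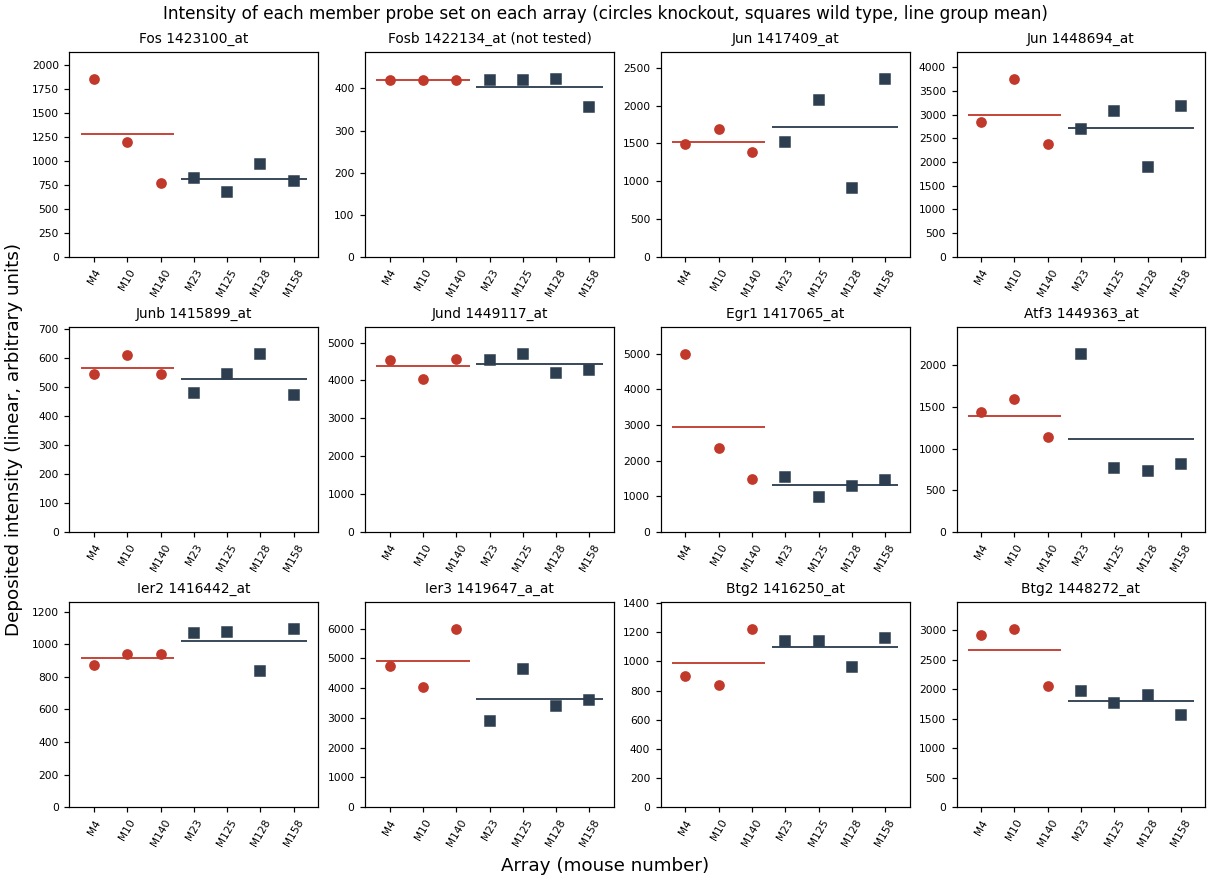
Deposited intensity (linear, arbitrary units) of each of the 12 member probe sets on each of the 7 arrays, with circles for knockout, squares for wild type and lines for group means. Egr1 reached 4990 on M4 and Atf3 2137 on M23, while only Btg2 1448272_at had groups that did not overlap.

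Egr1, a zinc finger factor induced by growth signals and mechanical load, read 4990, 2362 and 1471 on knockout M4, M10 and M140 (1417065_at). Wild-type M23 read 1537, M125 980, M128 1289 and M158 1469. M4 stood 2.11 times above the next array, M10, and M140 lay within the wild-type range, so the groups overlapped. The knockout mean was 2941 ± 1830 (SD, n = 3) and the wild-type mean 1319 ± 248.9 (SD, n = 4). Knockout exceeded wild type by 0.99 ± 0.37 (SE) on the log2 scale, which is 1.98-fold (limma adjusted p = 0.377, exact 2-sided permutation p = 0.0571). This was the largest difference of the 12 member probe sets. Without M4 it was 0.52, and without M140 it was 1.39.

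An array more than 2-fold above every other was rare, at 0.195% of all tested probe sets, and M4 was that array for 6 of them, or 0.0434%. The difference of Egr1 rested on M4 by the rule that leaving out 1 array turns its sign or brings it under 66.7% of its size. A difference of at least 0.5 in size was found for 6.3% of all tested probe sets, and 3.71% of all were that much higher in knockout. Of these 871 probe sets 27.6% rested on 1 array in this way. Of the 3 member probe sets of that size, 2 did so, Egr1 and Fos, and in both the array was M4. Member differences under 0.5 in size were not judged by this rule.

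Fos, the founding AP-1 subunit, read 1862, 1201 and 773 on M4, M10 and M140 (1423100_at). On M23, M125, M128 and M158 it read 819, 677, 969 and 789. M4 and M10 were the 2 highest arrays, whereas M140 was lower than all wild-type arrays but M125. The knockout mean of 1279 ± 548.6 (SD, n = 3) exceeded the wild-type mean of 814 ± 120.5 (SD, n = 4) on the log2 scale by 0.56 ± 0.26 (SE; limma adjusted p = 0.460, exact 2-sided permutation p = 0.200). Without M4 the difference was 0.25, and without M140 it was 0.88. On day 1 the direction was the opposite, with M140 below M128 by -0.32.

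Fosb, the close relative of Fos, was too dim to be tested (1422134_at). It read 419 on 5 arrays, 423 on M128 and 355 on M158, between percentiles 26.7 and 32.5 of its arrays. The value 419 was the same number on all 5 arrays, a feature of the deposited values: 49.9% of all probe sets had a value equal on at least 2 arrays.

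Jun, the usual partner of Fos, was read by probe sets that differed in opposite directions, both within their spread. The first, 1417409_at, read 1491, 1690 and 1392 on M4, M10 and M140 and 1517, 2069, 904 and 2356 on M23, M125, M128 and M158. The wild-type arrays spanned 2.61-fold, from M128 to M158, and enclosed all 3 knockout arrays. Its log2 difference was -0.08 ± 0.30 (SE; limma adjusted p = 0.953). The second, 1448694_at, read 2847, 3758 and 2378 on the knockout arrays and 2692, 3068, 1899 and 3187 on the wild-type arrays, a log2 difference of 0.14 ± 0.23 (SE; limma adjusted p = 0.867). M128 was the lowest array on both, and without it the differences were -0.36 and -0.02.

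Junb, a Jun relative that can restrain Jun in some settings, was dim, between percentiles 36.5 and 45.7 of its arrays (1415899_at). It read 544, 611 and 544 on the knockout arrays in the same order and 478, 544, 615 and 471 on the wild-type arrays. The log2 difference was 0.11 ± 0.11 (SE; limma adjusted p = 0.760). Jund, the member of the Jun family that is present in resting cells, varied least among the tested members (1449117_at). It read 4550, 4046 and 4560 on the knockout arrays and 4550, 4701, 4184 and 4283 on the wild-type arrays. Its log2 difference of -0.02 ± 0.12 (SE; limma adjusted p = 0.977) was the smallest in size, and its sign turned without M10 or M125 and in the fits with hybridization day or array weights.

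Atf3, which binds cyclic AMP response elements and is induced by many kinds of stress, read 1436, 1591 and 1143 on M4, M10 and M140 (1449363_at). On wild-type M23 it read 2137, the highest of all arrays, and on M125, M128 and M158 it read 765, 726 and 812. All 3 knockout arrays were above these last 3 wild-type arrays and below M23. The knockout mean was 1390 ± 227.2 (SD, n = 3), the wild-type mean 1110 ± 685 (SD, n = 4) and the log2 difference 0.47 ± 0.36 (SE; limma adjusted p = 0.681, exact 2-sided permutation p = 0.286). Without M23 it was 0.83 ± 0.13 (SE; limma adjusted p = 0.157). The experiment sheet of M23 carries a remark on joining 2 rounds of processing, and M23 had the lowest Gapdh ratio, 0.098, against 0.34 on M158 of the same day. The part of either in the Atf3 value was not tested.

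Ier3, a short-lived stress-response protein linked to cell survival, read 4737, 4036 and 5983 on M4, M10 and M140 (1419647_a_at). The wild-type arrays read 2888 (M23), 4631 (M125), 3382 (M128) and 3590 (M158). M140 was the highest array, and the groups overlapped because M125 exceeded M10. The knockout mean was 4919 ± 986 (SD, n = 3), the wild-type mean 3623 ± 734 (SD, n = 4) and the log2 difference 0.44 ± 0.20 (SE; limma adjusted p = 0.446, exact 2-sided permutation p = 0.114). Leaving out each array gave 0.29 to 0.57, with the lowest value without M140. That lowest value was under 66.7% of the full difference. Being under 0.5 in size, the full difference was not judged by the single-array rule.

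Ier2, a small nuclear immediate early protein, read 871, 940 and 940 on the knockout arrays and 1066, 1076, 834 and 1093 on the wild-type arrays (1416442_at). The knockout arrays lay below 3 of the 4 wild-type arrays and above M128. Its log2 difference was -0.14 ± 0.11 (SE; limma adjusted p = 0.679), and without M128 it was -0.23.

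Btg2, an antiproliferative gene that p53 and mitogens both induce, gave opposite answers on its 2 probe sets. The probe set 1448272_at read 2911, 3018 and 2055 on M4, M10 and M140 and 1965, 1756, 1898 and 1554 on M23, M125, M128 and M158. Every knockout array exceeded every wild-type array. The knockout mean was 2661 ± 527.4 (SD, n = 3), the wild-type mean 1793 ± 181.9 (SD, n = 4) and the log2 difference 0.55 ± 0.16 (SE; limma adjusted p = 0.293). The exact 2-sided permutation p was 0.0286, the smallest that the 35 splits of 7 arrays allow. This difference held at 0.45 to 0.73 when each array was left out, so it did not rest on a single array. It was 0.11 with hybridization day as a fixed block, and it passed with array weights (0.68, limma adjusted p = 0.0419; over all alternatives the adjusted p ran from 0.0419 to 0.872).

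The other probe set, 1416250_at, read 897, 839 and 1223 on M4, M10 and M140 and 1137, 1140, 961 and 1163 on M23, M125, M128 and M158. M4 and M10, the highest arrays of the first probe set, were the lowest here, and the log2 difference was -0.17 ± 0.14 (SE; limma adjusted p = 0.700). The ratio of 1448272_at to 1416250_at was 3.24 and 3.60 on M4 and M10 and 1.34 to 1.97 on the other 5 arrays, with M140 at 1.68. M4 and M10 share both genotype and hybridization day, which cannot be told apart for them.

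**Figure D2:**
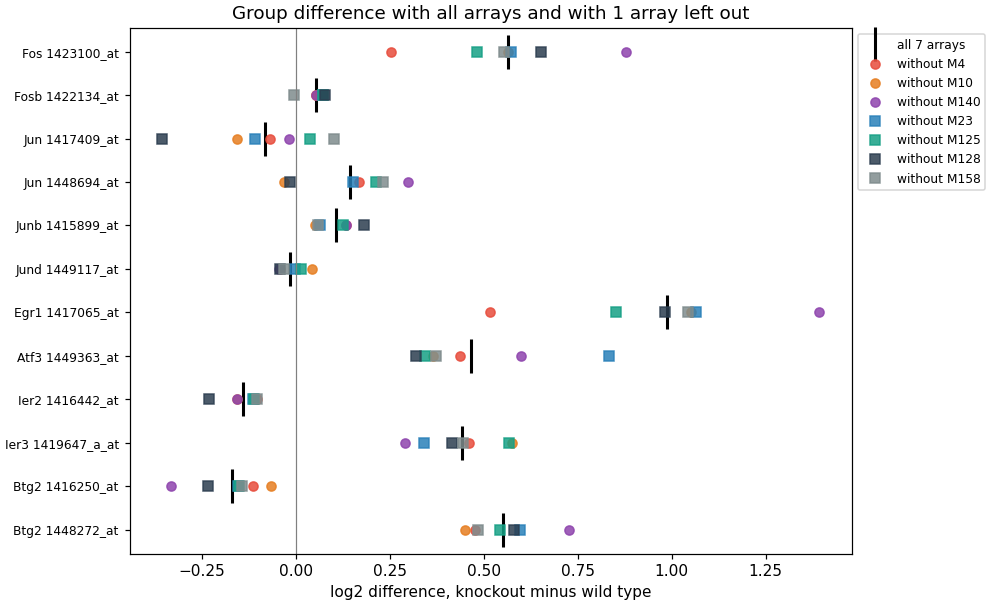
Log2 difference, knockout minus wild type, of each member probe set with all 7 arrays (black bar) and with 1 array left out (coloured points). Egr1 moves from 0.99 to 0.52 and Fos from 0.56 to 0.25 without M4, and Atf3 moves from 0.47 to 0.83 without M23.

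Arrays of 1 hybridization day offer pairs that share day and chip lot. On day 3 both arrays are knockout, and Egr1 differed between M4 and M10 by 1.07 on the log2 scale and Fos by 0.63. Egr1 was 1 member probe set of 11 past 2-fold, against 0.94% of all tested probe sets (0.73% with M4 higher). Egr1 and Fos both passed 0.5 in size, as did 6.16% of all. On day 4 both arrays are wild type, and Atf3 differed between M23 and M158 by 1.38. Atf3 was again 1 of 11 past 2-fold, against 0.239% of all tested probe sets (0.0723% with M23 higher). It and Jun 1417409_at (-0.63) passed 0.5 in size, as did 5.16% of all. For Egr1, Fos, Atf3 and Jun 1417409_at these gaps were larger in size than the group differences of 0.99, 0.56, 0.47 and -0.08. The gaps are between single arrays and the group differences between means, and the same arrays enter both.

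On day 1, knockout M140 exceeded wild-type M128 for 9 of the 11 tested member probe sets, and 47.1% of all tested probe sets were higher there. The median difference over the 11 was 0.19 (0.00 over all tested probe sets), and 0 passed 2-fold, against 3.56% of all (2.72% with M140 higher). Past 0.5 in size were 3 of the 11, and 17.4% of all. Ier3 differed by 0.82, Atf3 by 0.64 and Jun by 0.61 and 0.32. Egr1 and Btg2 1448272_at, which had the smallest p over all arrays, differed there by 0.19 and 0.11. With 1 array a side these values have no replicate check. M140 and M128 also differed in tissue markers, with Myl7 at 407 and 2926, Sln at 477 and 3071, and Postn at 37003 and 5504. The part of this in the member differences was not tested. M128 was the lowest of the 7 arrays for 4 of the 11 tested member probe sets and for 21.8% of all tested probe sets.

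**Figure D3:**
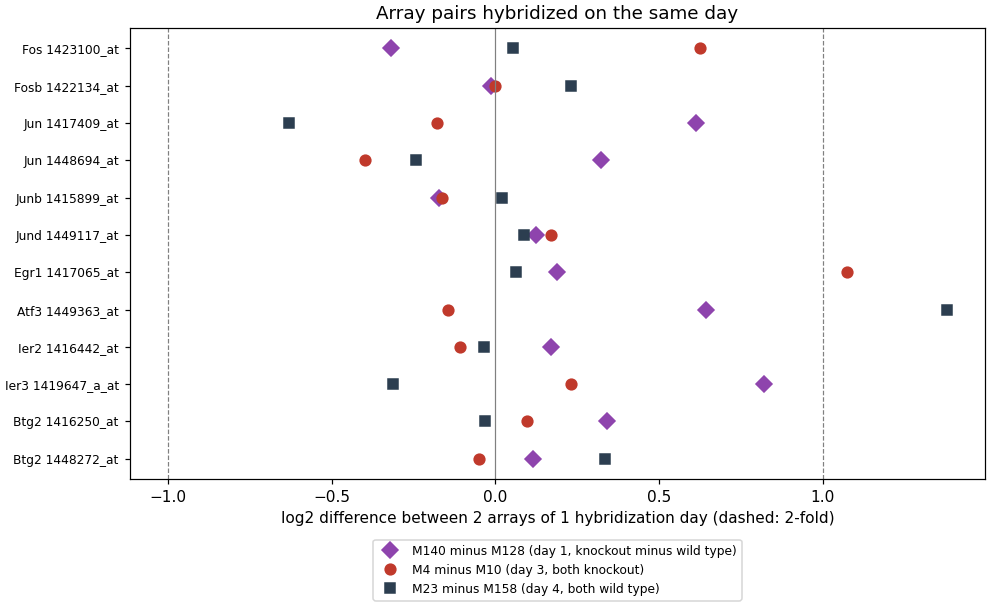
Log2 difference between the 2 arrays of each hybridization day that held 2 arrays, for each member probe set, with dashed lines at 2-fold. Egr1 lies at 1.07 between the knockout arrays M4 and M10 and Atf3 at 1.38 between the wild-type arrays M23 and M158.

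Markers of other cell types were read beside these genes, and in whole tissue fewer cells of a type and less RNA per cell cannot be told apart. The red blood cell markers Alas2 and Hbb-b2 were highest on M4 and M10, the arrays on which Egr1, Fos and Btg2 1448272_at were highest. The list's summed level was 8942 and 10004 on M4 and M10, 5183 on M140 and 3895 to 4721 on the wild-type arrays, over 3 tested genes of 5. Alas2, which made up most of the sum on M4 and M10, read 6236, 6484 and 2597 on M4, M10 and M140 and 1649 to 2123 on the wild-type arrays. The third, Epb42, read 449, 524 and 496 on the knockout arrays, lowest on M4, and 524 to 549 on the wild-type arrays. Of the 3 genes, 2 (Alas2 and Hbb-b2) read higher on all knockout arrays, as did 5.28% of all tested genes. Macrophage and monocyte markers summed to 28027 to 36844 on knockout and 20938 to 33539 on wild-type arrays, with 4 of 8 genes higher on all knockout arrays, against the same 5.28%. Neutrophil markers were highest on M10, at 11593, and ran from 2674 to 7211 on the other arrays, with 4 of 5 genes tested. Endothelial markers summed to 15557 to 17668 and 11620 to 16222, with 1 of 7 genes (Vwf, 14.3%) higher on all knockout arrays, again against 5.28%. Of these 7 genes, 6 had a log2 difference above 0, among them Cdh5 at 0.05 and Emcn at 0.07, while Kdr was lower in knockout (-0.29). Fibroblast markers ran from 20738 on M10 to 86954 on M140, wider than the wild-type range of 26400 to 43098. Much of this range came from Postn (1684.5 on M10, 37003 on M140) and Col3a1 (1691 and 19869). Of the 7 genes, 4 had a log2 difference above 0, while Lum, Tcf21 and Dcn were lower in knockout, and all had overlapping groups. The part of these cell types in the member values was not tested.

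Of 30 other immediate early genes 26 were tested, and an unadjusted p under 0.05 was reached by 1 higher and 1 lower gene. These 2 are 7.69% of the 26, against 12.1% of all tested genes, 6.74% higher and 5.4% lower. Their median log2 difference was 0.02, and 0 passed an adjusted p of 0.05 by limma. Ier5, a serum- and stress-induced relative of Ier2, read 3351, 3242 and 2456 on M4, M10 and M140 and 1867, 1739, 1162 and 1884 on the wild-type arrays (1417612_at). The groups did not overlap, which held for 10.2% of all tested genes (5.28% higher, 4.88% lower), and the log2 difference was 0.87 ± 0.20 (SE; limma adjusted p = 0.218). It was 1.07 on day 1. Its other 2 probe sets were too dim to be tested.

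Cebpb, a leucine zipper factor of inflammation and growth, was the 1 lower gene. It read 2495, 3138 and 3880 on M4, M10 and M140 and 5196, 5969, 6346 and 4234 on M23, M125, M128 and M158, again without overlap. Its log2 difference was -0.78 ± 0.20 (SE; limma adjusted p = 0.254), and it was -0.71 on day 1. Hbegf, a growth factor shed from the cell surface, read 1726 on M4, 1302 on M140 and 770 on M10, against 815 to 953 on the wild-type arrays, a log2 difference of 0.47 ± 0.24 (SE; limma adjusted p = 0.490). Its other tested probe set differed by -0.18.

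**Figure D4:**
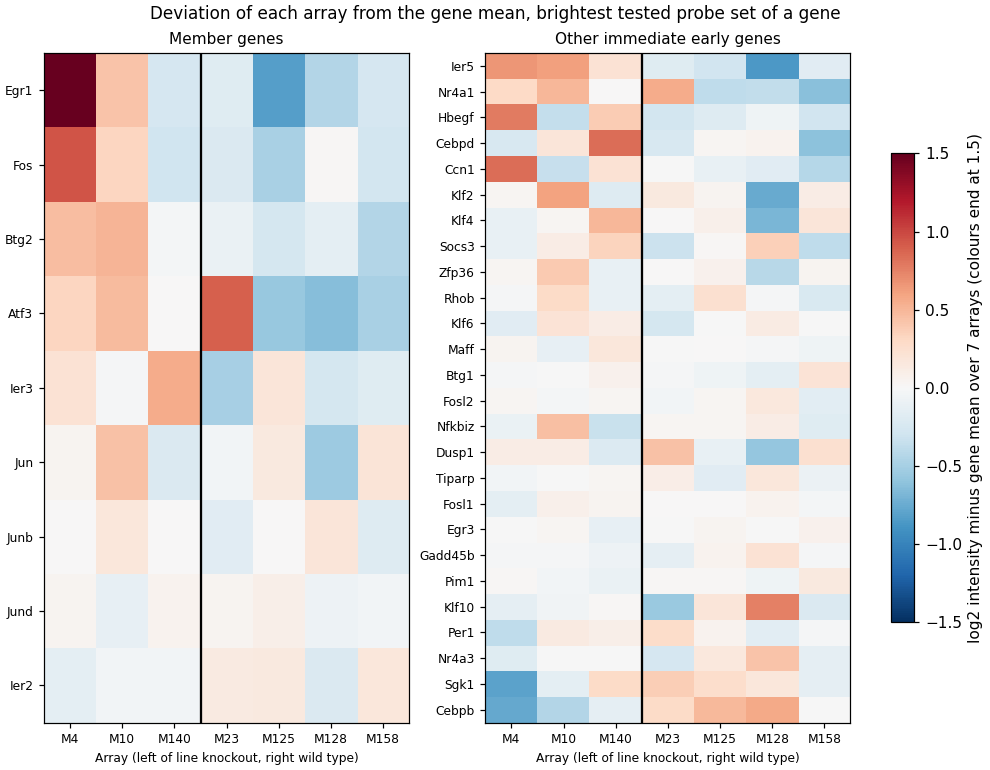
Log2 intensity of each array minus the gene's mean over 7 arrays, for the 9 tested member genes and 26 other tested immediate early genes, each ordered by its group difference. Knockout arrays are left of the line. Egr1 and Fos are high on M4, Atf3 on M23, and Ier5 and Cebpb separate the groups.

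The kinases and factors that drive immediate early genes had 16 tested genes of 23, with a median log2 difference of 0.01 and 1 higher at an unadjusted p under 0.05, 6.25% of them against 12.1% of all tested genes. That gene was Elk3, a ternary complex partner of serum response factor, at 1324, 1288 and 1286 on the knockout arrays and 940, 1092, 668 and 1048 on the wild-type arrays (1448797_at). Its log2 difference was 0.49 ± 0.16 (SE; limma adjusted p = 0.316), and its other tested probe set differed by -0.0040. Map2k6, a kinase upstream of p38, differed by -0.24, and Mrtfa, an actin-regulated coactivator of serum response factor, by -0.15 (adjusted p of 0.548 and 0.561 by limma).

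AP-1 partners and inhibitors had 12 tested genes of 16, with a median of -0.10 and 1 lower at an unadjusted p under 0.05, 8.33% of them against 12.1% of all tested genes. It was Nab2, a corepressor of Egr1, which read 594, 602 and 584 on M4, M10 and M140 and 625, 680, 683 and 664 on the wild-type arrays, a log2 difference of -0.16 ± 0.06 (SE; limma adjusted p = 0.402). Dusp10, a phosphatase of stress kinases, differed by -0.21 and Mafk, a small Maf factor, by 0.42 (adjusted p of 0.446 and 0.486 by limma).

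Known targets of AP-1, Egr1, Atf3 or p53 had 14 tested genes of 18, with a median of 0.07. At an unadjusted p under 0.05, 3 were higher and 0 lower, 21.4% of them, against 12.1% of all tested genes (6.74% higher and 5.4% lower), and 0 passed an adjusted p of 0.05 by limma. Mmp3, a matrix protease and classical AP-1 target, read 1373, 1423 and 2110 on the knockout arrays and 739, 1210, 1304 and 941 on the wild-type arrays, a log2 difference of 0.64 ± 0.23 (SE; limma adjusted p = 0.346). Ddit3, a stress factor that can pair with Atf3, differed by 0.44 ± 0.18 and Vegfa, the endothelial growth factor, by 0.38 ± 0.15 (SE; limma adjusted p of 0.404 and 0.403). Vegfa read 3501 on both M140 and M23, and its other probe set differed by 0.03.

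Among 8860 genes outside the set, those with array patterns most like Fos, Egr1 and Atf3 were found by the root mean square difference of mean-centred log2 values over the 7 arrays. For Fos these were Serpinb6b, the host gene of small nucleolar RNAs Gas5, and Ifrd1 (0.21, 0.21 and 0.22, against a median of 0.48 over all genes). Gas5 read 10022, 7643 and 6142 on M4, M10 and M140 and 3508 to 5734 on the wild-type arrays. For Egr1 they were Mical1, Eif5b and Cd24a (0.27, 0.31 and 0.32, median 0.72), with Mical1 at 1210 on M4 and 322 to 584 on the other arrays.

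For Atf3 the nearest was Nr4a1, an orphan nuclear receptor and itself an immediate early gene, at 0.19, followed by Cnot2 and Trim25 at 0.26 each (median 0.57). Nr4a1 read 2851, 3285 and 2335 on M4, M10 and M140, 3420 on M23 and 1775, 1796 and 1500 on M125, M128 and M158. Like Atf3 it was highest on M23 and higher on all knockout arrays than on the other 3 wild-type arrays. Between members, Fos lay at 0.26 from Btg2 1448272_at, at 0.30 from Egr1 and at 0.56 from Atf3. These distances describe 7 arrays and were not tested.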

How the data were processed

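The deposited table holds intensities per probe set and array on a linear scale; how they were background-corrected and scaled is unstated in the sources at hand. The authors' intensities had nearly equal medians, no value under 86.5 and an upper limit of 44145 to 45552 on each array, and they were used as deposited. The experiment sheets gave hybridization day and chip lot. Of 22690 probe sets 64 controls were left out, and a platform table named 1 gene for 20380, several for 691 and none for 1555. Gene numbers of 20351 matched the GRCm38.p6 gene table. Intensities were taken as log2(intensity + 16), which shrinks differences at low intensity. Testing required an intensity above the 40th percentile of the array on at least 3 arrays.

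Groups were compared by limma 3.58.1 in R 4.3.3 (lmFit, then eBayes with a variance trend; p-values count both directions) over 13836 probe sets with Benjamini-Hochberg adjustment, and members also by the exact permutation test over 35 splits. A gene was represented by its brightest tested probe set. The fit was tested on simulated data with independent normal noise. These data held no effect of hybridization day, no values shared between arrays and no upper limit, so the fit was not checked against these features. Members, lists and tests were chosen with earlier results of these data known. All member probe sets are named, with the 3 genes of smallest p of each other list and the 3 most alike genes of Fos, Egr1 and Atf3. Number of arrays, 3 and 4, limits the precision, and nothing is paired. Alternatives were the offset, quantile normalization, normexp, the filter, the variance prior, array weights, hybridization day as a block, the choice of probe set and leaving out arrays.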

Additional observations from a re-analysis of the deposited data

Results flagged for a closer look

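Within the 4 wild-type arrays, 6 of 34 probe sets examined had an array whose gap to its nearest neighbour took a share of the log2 range above Dixon's critical value, which chance gives for about 1 group in 20. Over all 13836 tested probe sets 9.92% did so, and M128 was the low array for 1.99%. Atf3 read 2137 on M23 against 726 to 812 on the others (0.898 of the range). Fosb read 355 on M158 against 419 to 423 (0.942), below the level at which it was tested. M128 was the low array for the other 4. Ier2 read 834 there against 1066 to 1093 (0.907), and Btg2 1416250_at 961 against 1137 to 1163 (0.884). Ier5 read 1162 against 1739 to 1884 (0.833), and Ddit3 1297 against 1830 to 1876 (0.932). Ier5 and Ddit3 are not members and were named for a p among the 3 smallest of their lists, and M128 enters that p.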

How the results depend on the processing

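Of 208 values of single member probe sets under the alternatives, 188 kept their direction and their side of an adjusted p of 0.05 by limma, 19 changed sign and 1, Btg2 1448272_at with array weights, passed (0.68, adjusted p = 0.0419). With array weights Jun 1448694_at was -0.019 and Jund 0.025, 619 of all tested probe sets passed, and 6 member probe sets had an unadjusted p under 0.05. With day as a fixed block, which rests on M140 and M128, the signs of Fos (-0.32), Jun 1417409_at (0.61), Junb (-0.17), Jund (0.12), Ier2 (0.17) and Btg2 1416250_at (0.34) turned, the members' median was 0.17 and 1 of all tested probe sets passed. With day as a random block Jun 1417409_at was 0.028 and Jund 0.0060. Without M23 and M158 Jun 1417409_at was 0.15, Junb -0.031 and the median 0.29, and 1 probe set passed. Without M10 and M125 Jund was 0.071 and the median 0.24, 2 probe sets passed, and 1 member had such a p. The median was 0.29 with no filter, where Fosb enters, and 0.19 with the mean of a gene's probe sets, and 1 probe set passed with the 60th percentile filter. The cause of these shifts was not tested. Leaving out each array gave 0 to 74 of all tested probe sets passing (74 without M10, 27 without M140), 1 to 4 member probe sets at an unadjusted p under 0.05 (1 without M4, 4 without M140) and a median of 0.25 to 0.37. It gave -0.36 to 0.10 for Jun 1417409_at, -0.031 to 0.30 for Jun 1448694_at and -0.044 to 0.042 for Jund. No paired analysis was possible because no mouse number occurs in both groups.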

Other observations

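The 6 tested probe sets on which M4 was at least 2-fold above every other array, a list drawn after their values were seen, held Egr1, Mical1 and 4 probe sets of Fmod, a small collagen-binding proteoglycan. Fmod 1456084_x_at read 3433 on M4, 1142 on M140, 543 on M10, and no more than 475 on any wild-type array. Its probe sets are of a kind that can cross-hybridize.

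M23 exceeded M158 by 2-fold or more on 10 tested probe sets, again listed after their values were seen, and these held the immediate early genes Atf3 and Nr4a1 with Myh7, the slow myosin heavy chain, and Bex1. Myh7 read 30422 on M23, 10761 on M158, 6893 on M125 and 2002 on M128, against 43639 to 44868 on the knockout arrays. On M4 and M10 it was at the top of the scale, so its level there is not resolved. Of the 10, 8 read higher on M23 than on every other array, all but Myh7 and Gpsm1. M23 was the highest array for 14.2% of all tested probe sets. The list was chosen for M23 being above M158, so its share is partly built in. Atp5a1 1420037_at read 2696 on M23, 1319 on M158 and 334 to 576 on the other 5 arrays.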
